A study of Arabidopsis thaliana with 30 samples.

Results

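The 8 repressor genes of the auxin pathway IAA1, IAA2, IAA3, IAA4, IAA7, IAA14, IAA16 and IAA17 were followed across all groups of an Arabidopsis thaliana warmth experiment. They were picked by their gene identifiers (AT4G14560, AT3G23030, AT1G04240, AT5G43700, AT3G23050, AT4G14550, AT3G04730 and AT1G04250), and all 8 were among the 25300 genes of the table and among the 21780 that passed the filter of at least 1 CPM (reads of a gene scaled to a common library total) in at least 3 libraries. The study asked how microRNAs take part in the growth response to warmth, and sequenced poly(A) RNA of whole 4-day-old seedlings grown in red light of 50 µmol per square metre per second. After 5 d of stratification at 4 °C, seedlings of each genotype spent 2 d at 21 °C and then 2 d at either 27 °C or 21 °C, which gave 10 groups of 3 libraries, 30 in all. The genotypes were MIM156, which expresses a target mimic that sequesters miR156; pif457, a triple mutant of the growth-promoting transcription factor genes PIF4, PIF5 and PIF7; dcl1-24/hyl1-2, in which a mutation in the microRNA-processing enzyme gene DCL1, recovered as a suppressor in a chemically mutagenized hyl1-2 population, is combined with hyl1-2; hyl1-2 alone, which lacks the DCL1 partner HYL1; and the wild type Col-0, the ecotype that all lines share. The mimic is a transgene under the 35S promoter, which is active in most tissues, the suppressor is 1 line, and the DCL1 allele was followed only together with hyl1-2.

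Aux/IAA proteins are short-lived repressors. They bind auxin response factors (ARFs) on the promoters of auxin-responsive genes and bring in co-repressors of the TOPLESS family. Auxin joins an Aux/IAA protein to an F-box receptor of the TIR1/AFB family, after which the repressor is degraded. Many Aux/IAA genes are themselves induced by auxin, which closes a feedback loop, so that transcript and protein need not move together. Dominant mutations that stabilize single members gave several of these genes their other names: IAA1 is AXR5, IAA3 is SHY2 (SHORT HYPOCOTYL 2), IAA7 is AXR2, IAA14 is SLR (SOLITARY ROOT) and IAA17 is AXR3. IAA2, IAA4 and IAA16 are close relatives of these. The receptor reads a short conserved motif in domain II of the protein, the degron, and the 39 coding bases around it are shown for every member because they set out how near the members are to each other. They were read from the TAIR10.1 genome with the RefSeq annotation, 5′ to 3′ on the coding strand, with the 15 bases of the degron core in capitals.
IAA1: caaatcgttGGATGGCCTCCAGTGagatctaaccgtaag
IAA2: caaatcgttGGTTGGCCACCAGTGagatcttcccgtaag
IAA3: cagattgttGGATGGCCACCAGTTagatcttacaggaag
IAA4: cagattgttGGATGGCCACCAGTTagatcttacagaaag
IAA7: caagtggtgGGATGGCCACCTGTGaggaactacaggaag
IAA14: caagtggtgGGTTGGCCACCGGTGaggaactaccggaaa
IAA16: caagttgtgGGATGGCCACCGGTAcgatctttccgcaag
IAA17: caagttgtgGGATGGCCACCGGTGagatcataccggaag
Over these 39 bases IAA3 and IAA4 differed at 1, IAA1 and IAA2 at 4, IAA7 and IAA14 at 4, and IAA16 and IAA17 at 5. The most distant pair was IAA4 and IAA14, with 14 differences.

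Of the 8 genes, 6 form neighbouring pairs in the TAIR10.1 genome, each pair head to head on opposite strands with no protein-coding gene between. IAA14 (chr4:8347822-8350263, minus strand) and IAA1 (chr4:8360996-8362033, plus strand) lie 10.7 kb apart. IAA2 (chr3:8180646-8182095, minus strand) and IAA7 (chr3:8194606-8197161, plus strand) lie 12.5 kb apart. IAA3 (chr1:1128149-1129689, minus strand) and IAA17 (chr1:1136078-1138663, plus strand) lie 6.4 kb apart. Each of these 3 pairs joins one of IAA1, IAA2 and IAA3 to one of IAA7, IAA14 and IAA17. IAA16 (chr3:1288155-1290891, minus strand) and IAA4 (chr5:17550179-17551715, plus strand) have no member beside them. IAA3 shares 536 of its 1355 exon bases (39.6%) with AT1G04230, a protein-coding gene on the other strand. The sources used here do not say whether reads were counted by strand, so how the shared bases entered the IAA3 values is uncertain.

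The libraries held between 18.4 and 27.1 M counted reads. IPS1, whose transcript backbone carries the mimic, averaged 39200 ± 6430 CPM in MIM156 at 27 °C and 50100 ± 18500 CPM at 21 °C, and did not exceed 11.5 CPM in any library of the other genotypes, and PIF5 averaged 11.7 ± 0.449 CPM in pif457 against 96.0 ± 2.15 CPM in Col-0 at 27 °C (SD, n = 3 each). PIF7 averaged 1.41 ± 0.598 CPM in pif457 against 11 ± 1.78 CPM in Col-0 at 27 °C. PIF4 did not mark the line as clearly, at 55.2 ± 1.59 CPM in pif457 against 86.1 ± 14.6 CPM in Col-0 at 27 °C. HYL1 gave no clear mark, at 15.9 ± 3.26 CPM in hyl1-2 against 7.19 ± 1.02 CPM in Col-0 at 27 °C, and 3.36 ± 0.925 against 5.87 ± 0.890 CPM at 21 °C, so the libraries labelled hyl1-2 and dcl1-24/hyl1-2 were not checked by it. HYL1 shares 36 of its 1806 exon bases (1.99%) with AT1G09690, which averaged 141 ± 8.52 CPM in hyl1-2 and 170 ± 11.4 CPM in Col-0 at 27 °C. How reads from these shared bases were counted was not tested. In all, 3 libraries stood apart in the summed level of 10 root marker genes: replicate 3 of Col-0 at 21 °C (179, against 27.7 and 53.8 CPM in the others of that group), replicate 3 of dcl1-24/hyl1-2 at 21 °C (177, against 22.9 and 64.6 CPM) and replicate 1 of pif457 at 27 °C (18.1, against 96.9 and 102 CPM). In hyl1-2 the same sum ranged over 35.2 to 52.6 CPM at 27 °C and 162 to 189 CPM at 21 °C, and 8 of the 9 root markers tested were lower with warmth. Green tissue markers also moved with temperature, and their values stand beside the results on warmth. The share of chloroplast reads moved with temperature and also differed between genotypes. At 27 °C it was 0.16 to 0.35% in pif457 and 0.38 to 0.49% in dcl1-24/hyl1-2. It was 1.14 to 1.86% in MIM156, 1.67 to 3.81% in hyl1-2 and 2.04 to 2.42% in Col-0 at that temperature. Its part in the differences from Col-0 was not tested. All levels below are CPM after median-of-ratios scaling, which sets the median gene equal between libraries, and a gene was called at a limma adjusted p under 0.05 over all 21780 genes.

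Within a genotype the levels spanned more than an order of magnitude, with IAA7 and IAA16 at the top and IAA14 and IAA1 at the bottom in every group. Per kilobase of exon, Col-0 at 27 °C held IAA7 at 146 ± 9.59, IAA16 at 77.9 ± 2.31, IAA17 at 53.7 ± 3.69, IAA2 at 33.5 ± 3.11, IAA4 at 24.2 ± 0.600, IAA3 at 19.3 ± 0.779, IAA14 at 6.56 ± 0.308 and IAA1 at 3.6 ± 1.05 CPM per kb (SD, n = 3), and no neighbours in that order overlapped. In Col-0 at 21 °C the order was the same, and the libraries of IAA2 and IAA4 overlapped. IAA16, not IAA7, was the highest member in MIM156 at both temperatures and in pif457 at 27 °C, although in pif457 at 27 °C the libraries of IAA16 and IAA7 overlapped per kilobase. IAA4 stood above IAA17 in MIM156 at 27 °C, whereas it stood below both IAA17 and IAA2 in Col-0. The 8 members together summed to 396.4 ± 6.73 CPM in MIM156 at 27 °C and 305.9 ± 8.80 CPM at 21 °C, the lowest sum of the 5 genotypes at each temperature, while Col-0 summed to 627 ± 32.9 CPM at 27 °C and 401.9 ± 35.0 CPM at 21 °C. These are sums in bulk RNA of whole seedlings, in which fewer cells of a type and less RNA per cell cannot be told apart. The abundant members weigh most in them: at 27 °C IAA7 averaged 103.7 CPM in MIM156 against 278.2 CPM in Col-0, and IAA16 158.5 against 157.8 CPM. The means of IAA2, IAA3, IAA14 and IAA17 were also lower in MIM156, and those of IAA1 and IAA4 were higher.

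**Figure D1:**
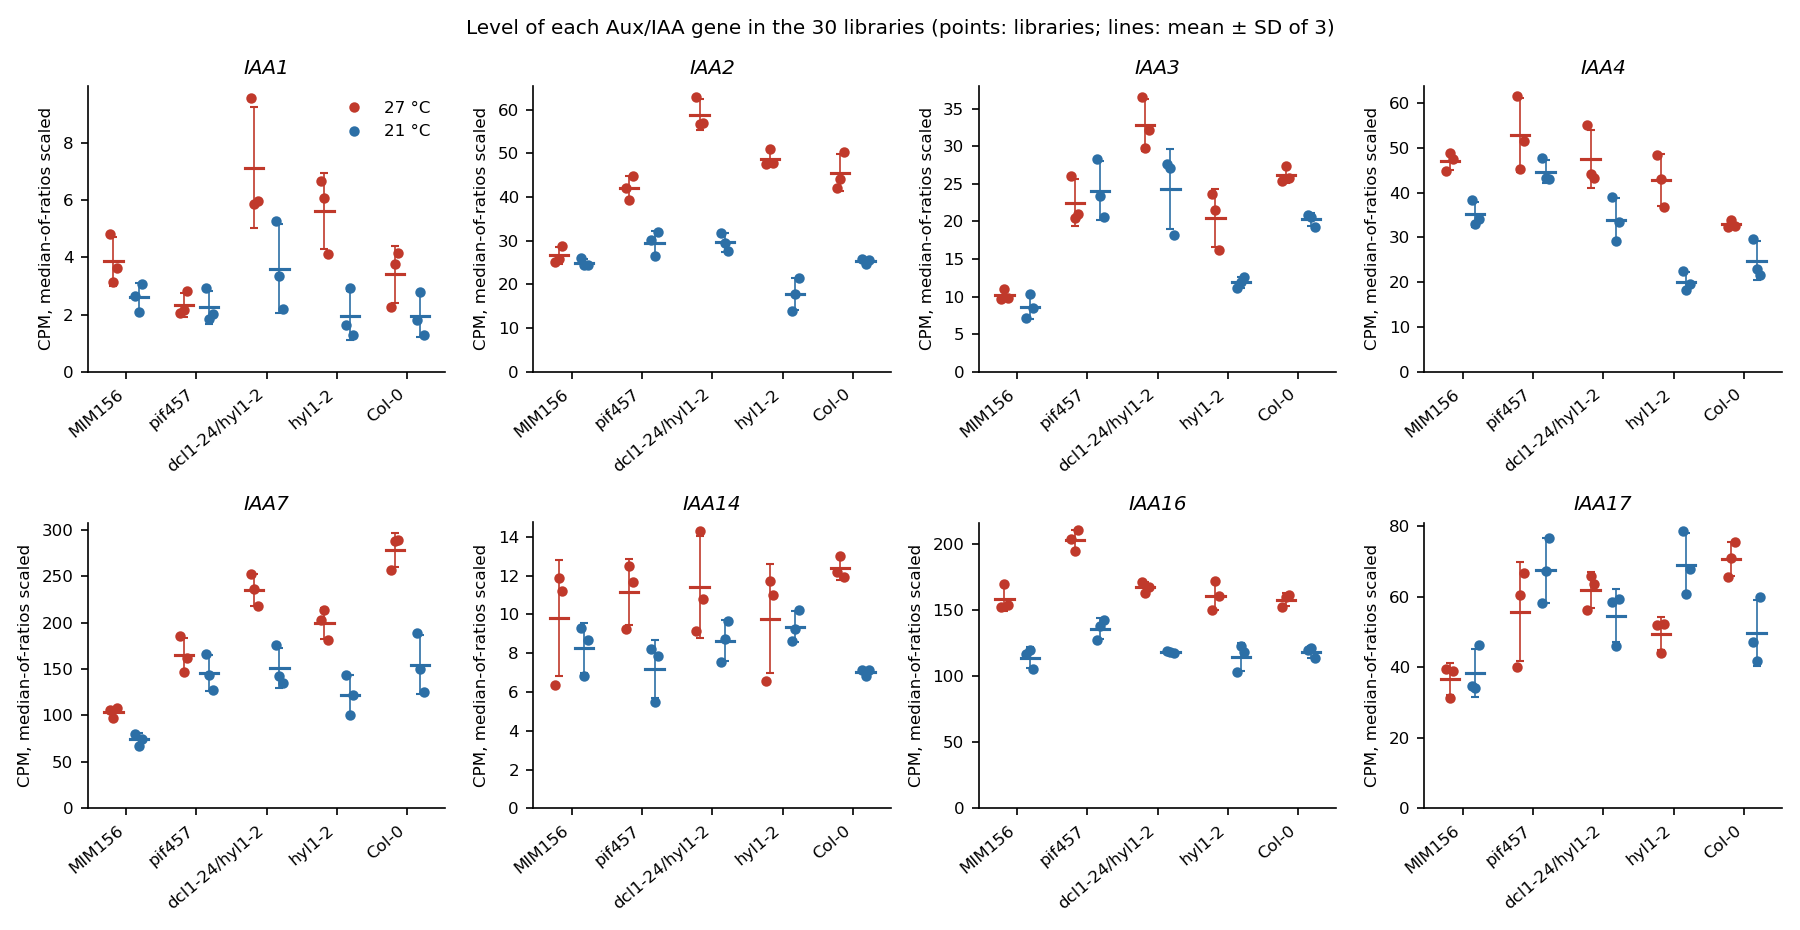
Level of each of the 8 genes in CPM after median-of-ratios scaling (vertical axis, from 0) in the 5 genotypes at 27 °C (red) and 21 °C (blue), with points for libraries and lines for the mean ± SD of 3. IAA16 sat higher at 27 °C in every genotype without overlap, IAA7 and IAA3 sat lowest in MIM156, and IAA17 was higher at 27 °C in Col-0 but lower at 27 °C in hyl1-2.

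In Col-0, warmth raised 6 of the 8 members and lowered none, beside 18.2% of all genes called in either direction (8.54% higher and 9.68% lower). IAA7 had 257, 288 and 289 CPM at 27 °C, against 189, 150 and 125 CPM at 21 °C. IAA2 had 42.1, 44.3 and 50.3 CPM at 27 °C, against 25.8, 24.7 and 25.5 CPM at 21 °C. IAA14 had 12.2, 13 and 11.9 CPM at 27 °C, against 7.11, 6.84 and 7.13 CPM at 21 °C. None of these 3 genes overlapped between temperatures, for which the share of all genes was not counted. Their log2 changes were 0.86 ± 0.14 for IAA7 (SE, adjusted p = 5.37e-05), 0.83 ± 0.12 for IAA2 (6.02e-06) and 0.77 ± 0.21 for IAA14 (0.0101). IAA16 rose by less and with little spread, to 152, 160 and 161 CPM at 27 °C, against 120, 121 and 113 CPM at 21 °C (log2 change 0.41 ± 0.09, adjusted p = 0.00162). IAA17 had 65.7, 71.0 and 75.4 CPM at 27 °C, against 47.0, 41.9 and 60.0 CPM at 21 °C (0.52 ± 0.17, adjusted p = 0.0273). IAA4 had 32.2, 33.8 and 32.6 CPM at 27 °C, against 29.7, 23.0 and 21.6 CPM at 21 °C (0.41 ± 0.14, adjusted p = 0.0321). IAA1 and IAA3 did not pass, with log2 changes of 0.68 ± 0.29 (adjusted p = 0.111) and 0.36 ± 0.16 (0.117). The median change of the 8 was 0.60, and that of all genes was 0.02. The calls of IAA17 and IAA4 were the least secure: IAA17 was not called without replicate 1 or 2 at 21 °C or replicate 2 or 3 at 27 °C (adjusted p between 0.0708 and 0.146), and IAA4 was not called without replicate 2 or 3 at 21 °C or any one replicate at 27 °C (0.0613 to 0.149). Without the 3 libraries of outlying root marker sums, 5 of the 6 calls remained, and IAA4 was the one lost. Of the 5 green tissue markers 4 were lower with warmth in Col-0, with a median log2 change of −0.76 and sums of 33600 to 43400 CPM at 27 °C against 58200 to 82900 CPM at 21 °C, and the part of this shift in the member values was not tested.

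hyl1-2 showed the most calls among the members with warmth, 6 higher and 1 lower of 8, in a genotype where 31.4% of all genes were called (14.3% higher and 17.1% lower). IAA2 had 47.7, 50.9 and 47.7 CPM at 27 °C, against 14.0, 17.9 and 21.5 CPM at 21 °C (log2 change 1.45 ± 0.12, adjusted p = 8.49e-10). IAA4 had 48.5, 43.0 and 36.8 CPM at 27 °C, against 22.4, 18.3 and 19.5 CPM at 21 °C (1.07 ± 0.14, adjusted p = 1.35e-06). For both genes the 27 °C libraries lay far above the 21 °C libraries. IAA1, the least abundant member, had 6.68, 6.08 and 4.11 CPM at 27 °C, against 1.64, 2.94 and 1.30 CPM at 21 °C (1.34 ± 0.29, adjusted p = 0.00101). IAA3 (0.74 ± 0.16, adjusted p = 0.000858), IAA7 (0.71 ± 0.14, 0.000477) and IAA16 (0.49 ± 0.09, 0.000241) also rose. IAA17 went the other way, with 52.1, 44.1 and 52.3 CPM at 27 °C, against 78.6, 60.8 and 67.8 CPM at 21 °C, and no overlap (−0.47 ± 0.17, adjusted p = 0.0305). IAA14 had 6.59, 11.7 and 11.0 CPM at 27 °C, against 8.61, 9.25 and 10.2 CPM at 21 °C, so that the groups overlapped (0.02 ± 0.21, adjusted p = 0.947). The root marker sum was lower at 27 °C in hyl1-2, as given above, with a median log2 change of −2.55 over the 9 markers tested, and its part in the IAA17 and IAA14 values was not tested. The IAA17 call was lost without replicate 1 or 3 at 21 °C or replicate 1 or 2 at 27 °C (adjusted p between 0.0514 and 0.126), and under the deposited totals, where the split of calls was 6 higher and 0 lower and the IAA17 change was −0.19. Those totals called 8840 of the 21780 genes, 6936 higher and 1904 lower. Chloroplast transcripts took 2.19, 3.81 and 1.67% of reads in hyl1-2 at 27 °C, against 13.1, 7.40 and 5.28% at 21 °C, the highest share of any library being that of replicate 1 at 21 °C, and the part of this in the member values was not tested. Of the 5 green tissue markers 1 was higher and 2 were lower with warmth in hyl1-2 (median log2 change −0.27), and their part was not tested.

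In dcl1-24/hyl1-2, 5 members rose with warmth and none fell, beside 14.4% of all genes (6.49% higher and 7.9% lower). IAA2 had 63.0, 56.7 and 57.0 CPM at 27 °C, against 31.8, 29.5 and 27.6 CPM at 21 °C (log2 change 0.98 ± 0.12, adjusted p = 1.17e-06). IAA7 (0.64 ± 0.14, 0.00215), IAA16 (0.50 ± 0.09, 0.000313), IAA4 (0.48 ± 0.14, 0.0148) and IAA1 (0.93 ± 0.29, 0.0304) were the other members called. IAA3 missed the threshold at 0.44 ± 0.16 (adjusted p = 0.061), IAA14 was at 0.36 ± 0.21 (0.282) and IAA17 at 0.19 ± 0.17 (0.519). IAA1 lost its call without replicate 2 or 3 at 21 °C or replicate 1 at 27 °C (adjusted p between 0.0758 and 0.182), and IAA4 without replicate 2 at 21 °C or replicate 1 at 27 °C (0.101 and 0.118). IAA3 was called without replicate 1 at 21 °C (0.54, 0.0417). Without the 3 libraries of outlying root marker sums 4 of the 5 calls remained, all but that of IAA1. Of the 5 green tissue markers 4 were lower with warmth in this line too, with a median log2 change of −1.02, and their part was not tested.

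MIM156 and pif457 each had 3 members called higher with warmth and none lower, and IAA16 was in both lists. In MIM156 18.3% of all genes were called (8.57% higher and 9.75% lower), and in pif457 17.4% were (8.27% higher and 9.13% lower). In MIM156, IAA16 had 152, 170 and 154 CPM at 27 °C, against 117, 120 and 105 CPM at 21 °C (log2 change 0.48 ± 0.09, adjusted p = 0.000473), IAA7 had 106, 97.1 and 108 CPM against 80.5, 67.6 and 74.6 CPM (0.48 ± 0.14, 0.0182), and IAA4 had 44.9, 48.8 and 47.5 CPM against 38.2, 33.0 and 34.1 CPM (0.42 ± 0.14, 0.0294). IAA2, which rose in the other 4 genotypes, was at 0.09 ± 0.12 in MIM156 (adjusted p = 0.647), with 25.2, 25.9 and 28.8 CPM at 27 °C, against 26.0, 24.5 and 24.4 CPM at 21 °C. Under the deposited totals, where the median change of all genes with warmth in MIM156 was 0.36, 8226 of the 21780 genes were called, 7454 of them higher. There 7 members were called, among them IAA2 (0.46, adjusted p = 0.0103) and IAA14 (0.56, 0.0364). All 3 members called in pif457 were then also called in MIM156. IAA4 in MIM156 lost its call without replicate 2 or 3 at 21 °C or any one replicate at 27 °C (adjusted p between 0.0507 and 0.0895), and IAA7 without replicate 2 at 21 °C or replicate 1 or 3 at 27 °C (0.0594 to 0.0708). In pif457, IAA16 had 204, 194 and 210 CPM at 27 °C, against 127, 138 and 142 CPM at 21 °C (0.58 ± 0.09, adjusted p = 4.79e-05). IAA2 had 42.0, 39.4 and 44.9 CPM at 27 °C in pif457, against 30.2, 26.5 and 32.0 CPM at 21 °C (0.51 ± 0.12, 0.00281). IAA14 had 9.23, 12.5 and 11.7 CPM, against 8.20, 5.47 and 7.86 CPM (0.61 ± 0.21, 0.0461), and its call was lost without replicate 2 or 3 at either temperature (0.0589 to 0.226). IAA7, the member with the largest change in Col-0, was at 0.18 ± 0.14 in pif457 (adjusted p = 0.433) and its libraries overlapped, with 185, 147 and 162 CPM at 27 °C against 166, 144 and 128 CPM at 21 °C. IAA17 in pif457 was at −0.30 ± 0.17 (0.238), with 40 CPM in replicate 1 at 27 °C, the library of low root marker sum, against 60.3 and 66.8 CPM in the others. The same 3 members were called in pif457 without the 3 libraries of outlying root marker sums, and IAA17 was at −0.08 (0.818). All 5 green tissue markers were lower with warmth in MIM156 (median log2 change −1.07), while in pif457 1 was higher and 1 lower (median −0.01), and their part was not tested.

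IAA16 was thus the one member called higher in all 5 genotypes, with log2 changes between 0.41 and 0.58, and it kept its call in each of them under all the alternative settings and with any one library left out. The share of all genes called higher in all 5 genotypes was not counted, so how common such a rise is remains unknown here.

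**Figure D2:**
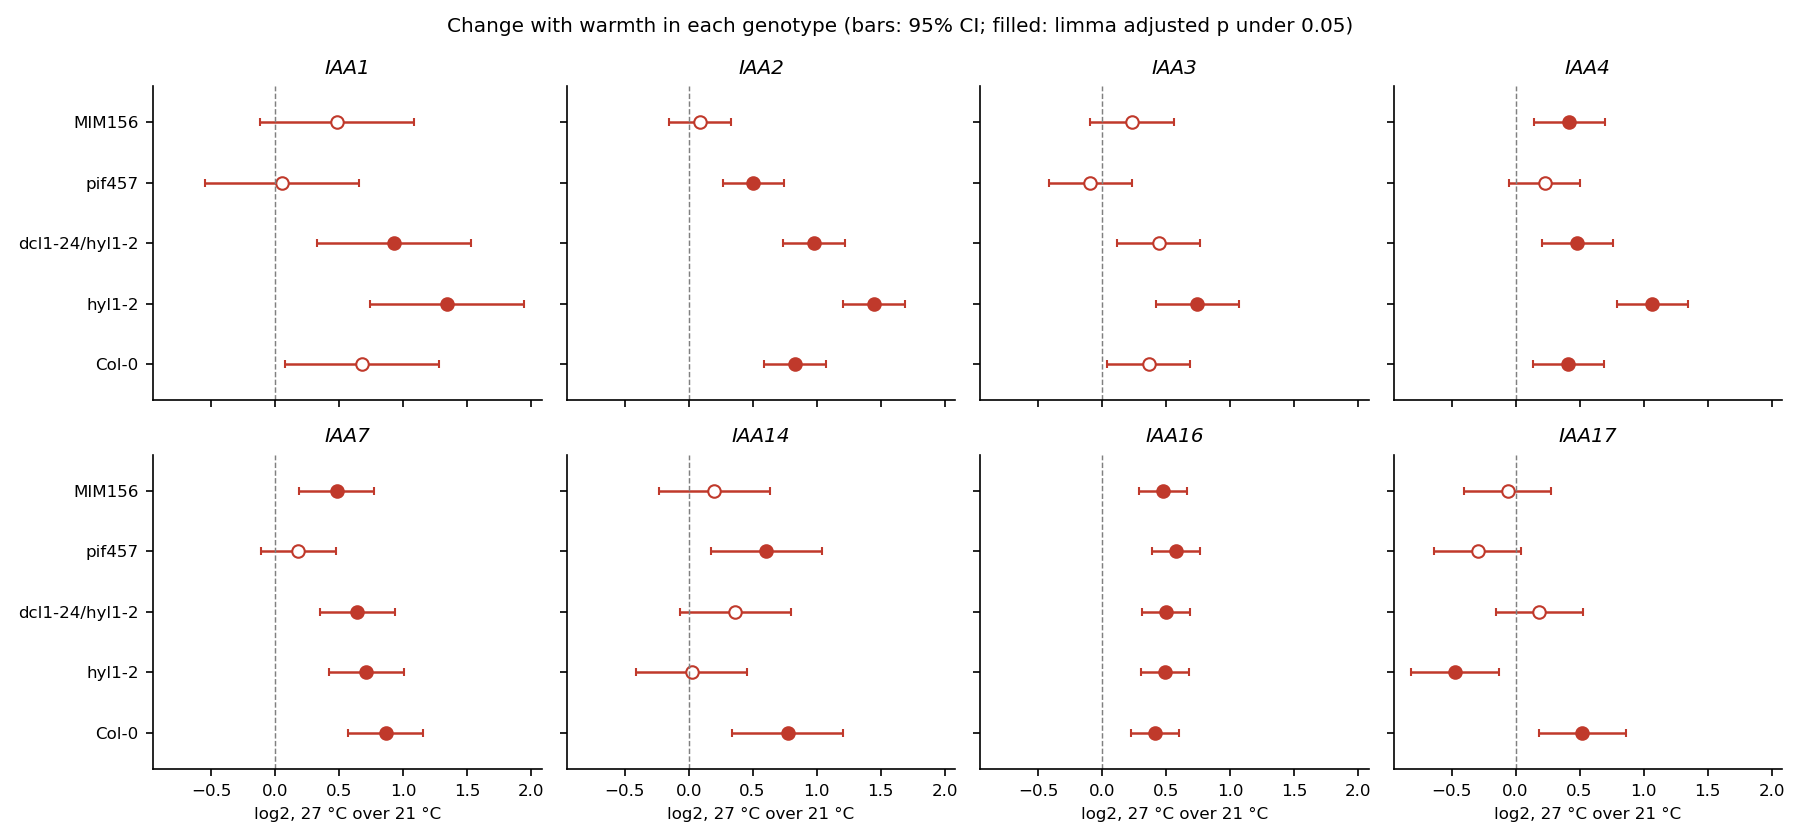
Log2 change with warmth, 27 °C over 21 °C, of each gene (horizontal axis) in the 5 genotypes (rows), with 95% confidence intervals and filled points for a limma adjusted p under 0.05. IAA16 was filled in every row at 0.41 to 0.58, IAA2 in every row except MIM156, and IAA17 was filled to the right in Col-0 and to the left in hyl1-2.

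At 27 °C, 5 of the 8 members differed in MIM156 from Col-0, 1 higher and 4 lower, beside 27.4% of all genes (12.8% higher and 14.6% lower). IAA7 had 106, 97.1 and 108 CPM in MIM156, against 257, 288 and 289 CPM in Col-0 (log2 difference −1.42 ± 0.14, adjusted p = 1.37e-08). IAA3 had 9.67, 11.1 and 9.78 CPM in MIM156, against 25.4, 27.4 and 25.8 CPM in Col-0 (−1.33 ± 0.16, 2.56e-07). IAA17 had 39.6, 31.4 and 38.9 CPM, against 65.7, 71.0 and 75.4 CPM in Col-0 (−0.95 ± 0.17, 8.05e-05), and IAA2 had 25.2, 25.9 and 28.8 CPM, against 42.1, 44.3 and 50.3 CPM (−0.76 ± 0.12, 1.36e-05). IAA4 lay on the other side, with 44.9, 48.8 and 47.5 CPM in MIM156 against 32.2, 33.8 and 32.6 CPM in Col-0 (0.51 ± 0.14, 0.00537). None of these 5 genes overlapped between the lines, for which the share of all genes was not counted. All 5 calls held under each alternative setting and with any one library left out. IAA16 was at 0.01 ± 0.09 (95% confidence interval −0.18 to 0.19). At 21 °C, 3 members differed, beside 28.5% of all genes (13.2% higher and 15.2% lower), a share of members not far from that background. IAA3 had 7.14, 10.4 and 8.43 CPM in MIM156, against 20.9, 20.6 and 19.3 CPM in Col-0 (−1.20 ± 0.16, 1.61e-06), IAA7 had 80.5, 67.6 and 74.6 CPM, against 189, 150 and 125 CPM (−1.04 ± 0.14, 2.80e-06), and IAA4 had 38.2, 33.0 and 34.1 CPM, against 29.7, 23.0 and 21.6 CPM (0.50 ± 0.14, 0.00574). The IAA4 call at 21 °C was lost in a fit of the compared groups alone (adjusted p = 0.0599) and without replicate 3 of the 21 °C groups of Col-0, dcl1-24/hyl1-2 and MIM156 (0.06). Without replicate 3 of MIM156 at 21 °C, IAA17 was called lower (−0.51, 0.0382). Leaving out the 3 libraries of outlying root marker sums changed none of the 3 calls. IAA3 and IAA4 stood on opposite sides of Col-0 in MIM156 at both temperatures. They differ at 1 of the 39 coding bases shown above and at 0 in the degron core, which is no measure of their expression. Summed seed storage markers reached 5.11, 94.6 and 159 CPM in MIM156 at 27 °C, against 10.2 to 17.0 CPM in Col-0, and summed green tissue markers 21900 to 27500 CPM, against 33600 to 43400 CPM in Col-0. Their part in the MIM156 differences was not tested.

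In pif457, 3 members differed from Col-0 at 27 °C, 2 higher and 1 lower, beside 16.3% of all genes (7.76% higher and 8.52% lower). IAA7 had 185, 147 and 162 CPM in pif457, against 257, 288 and 289 CPM in Col-0 (log2 difference −0.76 ± 0.14, adjusted p = 0.000423). IAA4 had 61.6, 45.2 and 51.5 CPM in pif457, against 32.2, 33.8 and 32.6 CPM in Col-0 (0.66 ± 0.14, 0.000955). IAA16 had 204, 194 and 210 CPM in pif457, against 152, 160 and 161 CPM in Col-0 (0.36 ± 0.09, 0.00699), but it lost its call under the deposited totals (0.22, adjusted p = 0.184), which left 1 member higher and 1 lower. Those totals called 3756 of the 21780 genes, 921 higher and 2835 lower. The same 3 calls stood without the 3 libraries of outlying root marker sums, and IAA17 was at −0.15 (0.59), against −0.37 (0.135) with them. Summed green tissue markers at 27 °C reached 53600 to 55200 CPM in pif457, against 33600 to 43400 CPM in Col-0. Summed seed storage markers reached 21.1 to 59.8 CPM against 10.2 to 17 CPM, and root markers 18.1 to 102 CPM against 60.6 to 86 CPM. Their part in the pif457 differences was not tested. At 21 °C only IAA4 was called, beside 10.4% of all genes (4.27% higher and 6.12% lower), with 47.6, 43.3 and 43.0 CPM in pif457 against 29.7, 23.0 and 21.6 CPM in Col-0 (0.85 ± 0.14, 0.000225). Same-numbered libraries of pif457 and Col-0 at 21 °C deviated together, and with the replicate block IAA17 was called as well (0.45, adjusted p = 0.0321, against 0.086 without the block). It was also called without replicate 3 of Col-0 at 21 °C (0.59, adjusted p = 0.0301).

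In hyl1-2 at 21 °C, 3 members differed from Col-0, 1 higher and 2 lower, beside 21.7% of all genes (11.5% higher and 10.2% lower). IAA3 had 11.1, 11.9 and 12.6 CPM in hyl1-2, against 20.9, 20.6 and 19.3 CPM in Col-0 (log2 difference −0.75 ± 0.16, adjusted p = 0.00152). IAA2 had 14.0, 17.9 and 21.5 CPM in hyl1-2, against 25.8, 24.7 and 25.5 CPM in Col-0 (−0.52 ± 0.12, 0.0026), and its call was lost in a fit of the compared groups alone (−0.51, 0.0788). IAA17 had 78.6, 60.8 and 67.8 CPM in hyl1-2, against 47.0, 41.9 and 60.0 CPM in Col-0 (0.48 ± 0.17, 0.0378), beside root marker sums of 162 to 189 CPM in hyl1-2 against 27.7 to 179 CPM in Col-0, whose part was not tested. The IAA17 call was lost without replicate 1 or 2 of Col-0 or replicate 1 or 3 of hyl1-2 (adjusted p between 0.0784 and 0.174), and under the deposited totals, where IAA7 was called instead (−0.40, 0.0379) and the split became 0 higher and 3 lower. Those totals called 4227 of the 21780 genes, 1748 higher and 2479 lower. IAA7 was also called lower without replicate 3 of Col-0 (−0.47, 0.0235) or replicate 1 of hyl1-2 (−0.45, 0.0395). At 27 °C no member was called by limma, beside 4.32% of all genes (1.65% higher and 2.66% lower). edgeR called 0 members, beside 897 of the 21780 genes, and DESeq2 called 1, beside 1200. Of the members 5 had an unadjusted p under 0.05, for which the share of all genes was not counted. IAA7 came nearest, with 203, 214 and 181 CPM in hyl1-2 against 257, 288 and 289 CPM in Col-0 and no overlap (−0.48 ± 0.14, adjusted p = 0.0504). Same-numbered libraries deviated together here too, and with the replicate block 3 members were called, beside 1319 of the 21780 genes: IAA7 (−0.48, 0.0108), IAA17 (−0.51, 0.0242) and IAA4 (0.37, 0.0393). At 27 °C summed green tissue markers reached 44500 to 54500 CPM in hyl1-2, against 33600 to 43400 CPM in Col-0. Root markers summed to 35.2 to 52.6 CPM against 60.6 to 86 CPM. Their part in these differences was not tested.

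At 27 °C dcl1-24/hyl1-2 had 1 member called, beside 2.02% of all genes (0.579% higher and 1.44% lower). There IAA4 had 55.0, 44.1 and 43.2 CPM, against 32.2, 33.8 and 32.6 CPM in Col-0 (log2 difference 0.51 ± 0.14, adjusted p = 0.0392), and the call was lost with any one of the 6 libraries left out (0.0563 to 0.317). edgeR called 1 member at 27 °C, beside 436 of the 21780 genes. DESeq2 and limma on the deposited totals called 3 each, IAA1, IAA2 and IAA4, beside 685 and 451 genes. At 21 °C no member was called by limma, edgeR or DESeq2, beside 1.12% of all genes by limma (0.354% higher and 0.771% lower), and 2 had an unadjusted p under 0.05. There edgeR and DESeq2 called 206 and 391 of all genes. IAA4 was called with the replicate block (0.45, adjusted p = 0.0242) and without replicate 1 of Col-0 (0.58, 0.0454), where same-numbered libraries deviated together. Against hyl1-2, the line from which it was raised, dcl1-24/hyl1-2 had 3 members higher and none lower at 21 °C, beside 29.7% of all genes (13.9% higher and 15.8% lower). IAA3 had 27.6, 27.1 and 18.2 CPM in dcl1-24/hyl1-2, against 11.1, 11.9 and 12.6 CPM in hyl1-2 (0.98 ± 0.16, 6.05e-05). IAA2 had 31.8, 29.5 and 27.6 CPM, against 14.0, 17.9 and 21.5 CPM in hyl1-2 (0.74 ± 0.12, 5.15e-05), and IAA4 had 39.1, 29.2 and 33.4 CPM, against 22.4, 18.3 and 19.5 CPM (0.74 ± 0.14, 0.000251). With the replicate block, which pairs these libraries, IAA1 (0.72, 0.0477) and IAA7 (0.31, 0.0455) were called too, for 5 in all, beside 7522 of the 21780 genes. Without the 3 libraries of outlying root marker sums 6 were called, 5 higher and 1 lower, beside 6727 of 21713 genes. The one lower was IAA17 (−0.40, 0.0497). Leaving out single libraries gave 3 or 4 calls: IAA1 was called without replicate 2 of hyl1-2 (0.99, 0.0234) or replicate 3 of dcl1-24/hyl1-2 (0.995, 0.0167), and IAA7 without replicate 1 of hyl1-2 (0.43, 0.0375). At 27 °C only IAA3 was called, beside 6.18% of all genes (2.81% higher and 3.38% lower), with 36.5, 29.8 and 32.1 CPM in dcl1-24/hyl1-2 against 23.6, 21.5 and 16.2 CPM in hyl1-2 (0.68 ± 0.16, 0.00862), and its call was lost without replicate 3 of hyl1-2 or replicate 1 of dcl1-24/hyl1-2 (0.067 and 0.0829).

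**Figure D3:**
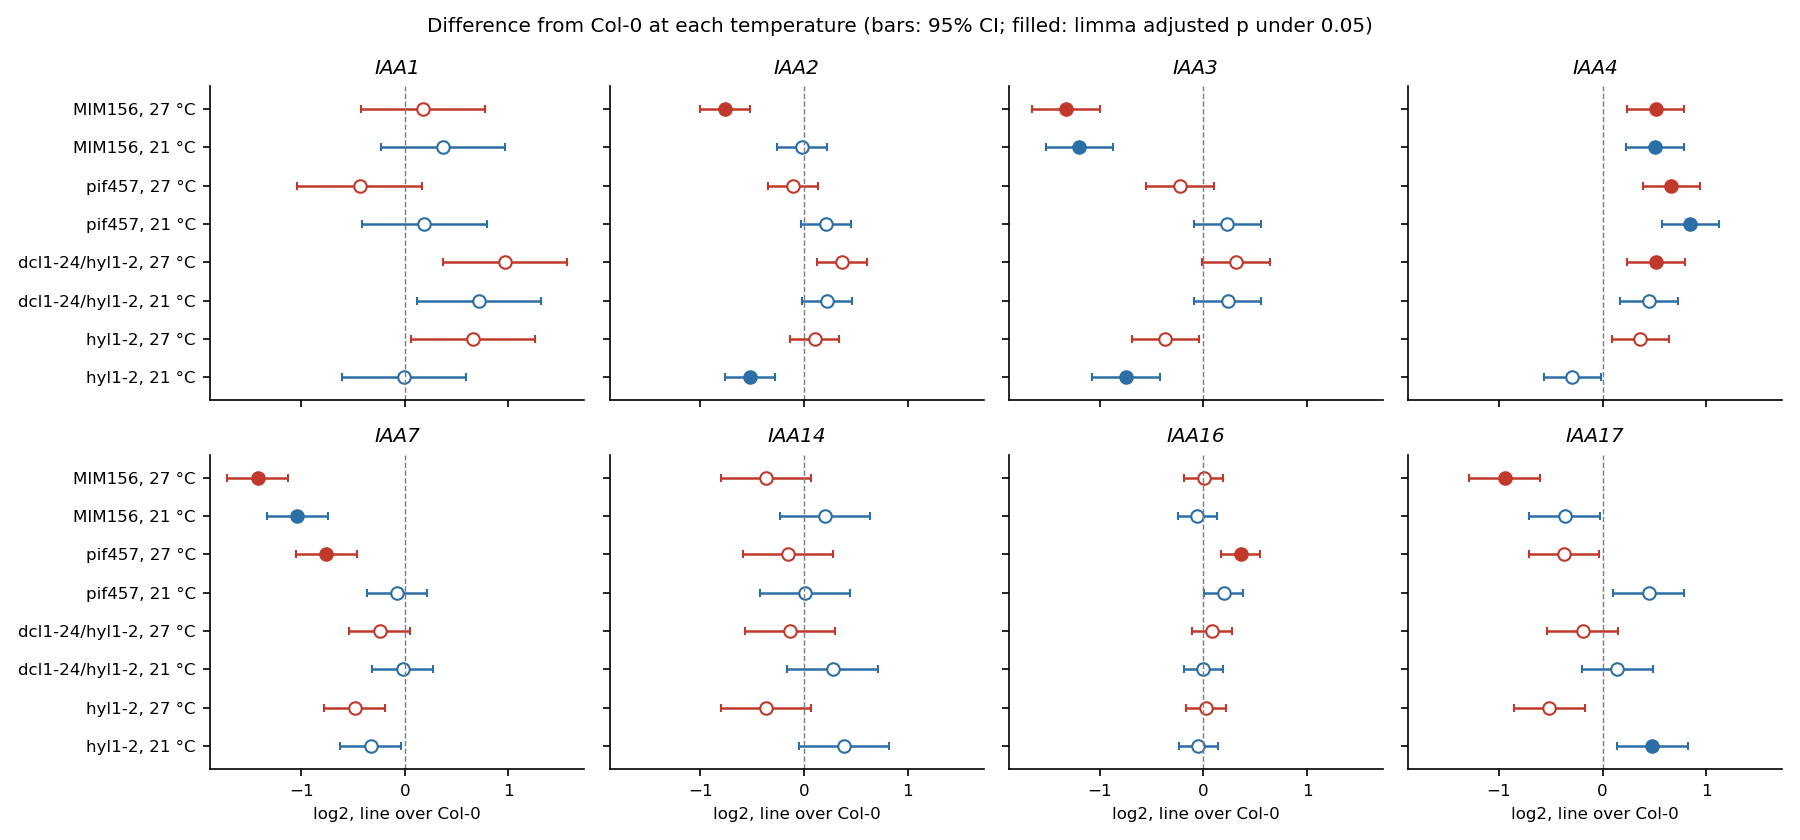
Log2 difference of each line from Col-0 (horizontal axis) for each gene, at 27 °C (red) and 21 °C (blue), with 95% confidence intervals and filled points for a limma adjusted p under 0.05. IAA7 and IAA3 lay left of 0 in MIM156 at both temperatures (−1.42 to −1.04), while IAA4 lay right of 0 in MIM156 and pif457 at both temperatures (0.50 to 0.85).

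Whether warmth acted differently in a line than in Col-0 was tested as the difference of the 2 log2 changes. In hyl1-2, 3 members differed, 2 higher and 1 lower, beside 6.76% of all genes (2.63% higher and 4.13% lower). The change of IAA17 was lower than in Col-0 by a log2 difference of −0.99 ± 0.24 (adjusted p = 0.013), and this call held under each alternative setting and with any one library left out. IAA4 (0.66 ± 0.19, 0.0376) and IAA2 (0.62 ± 0.17, 0.0259) responded more strongly in hyl1-2, but neither was called under the deposited totals, which left a split of 0 higher and 1 lower, beside 343 and 597 of all genes. Both calls were also lost when any of several libraries was left out: IAA2 was not called without replicate 1 of Col-0 at 21 °C, replicate 1 or 2 of Col-0 at 27 °C, replicate 1 of hyl1-2 at 21 °C, or replicate 1 or 2 of hyl1-2 at 27 °C (0.0505 to 0.0717), and IAA4 without any one of 9 of the 12 libraries, the exceptions being replicate 3 of Col-0 at 21 °C, replicate 1 of hyl1-2 at 21 °C and replicate 3 of hyl1-2 at 27 °C (0.0555 to 0.116). In the fits that lost the call, the difference was 0.46 to 0.64 for IAA2 and 0.52 to 0.70 for IAA4. IAA14 had a difference of −0.75 ± 0.30 in hyl1-2 that did not pass (0.124). In MIM156, IAA2 alone responded less than in Col-0 (−0.74 ± 0.17, 0.019), beside 1.58% of all genes (0.79% higher and 0.794% lower), and the call was lost without replicate 3 of Col-0 at 27 °C or replicate 1 of MIM156 at 27 °C (0.0528 and 0.0621), and under the deposited totals (−0.65, 0.0871). In pif457 no member was called by limma, edgeR or DESeq2, beside 1.36% of all genes by limma (0.565% higher and 0.799% lower) and 265 and 519 genes by edgeR and DESeq2. IAA17 (−0.82 ± 0.24, 0.0814) and IAA7 (−0.68 ± 0.20, 0.0928) were the 2 with an unadjusted p under 0.05, and IAA17 was called without replicate 3 of Col-0 at 21 °C (−0.96, 0.0315), IAA7 without replicate 1 of Col-0 at 21 °C (−0.84, 0.0358). In dcl1-24/hyl1-2 no member was called by limma, edgeR or DESeq2, beside 0% of all genes, and none had an unadjusted p under 0.05. Without the 3 libraries of outlying root marker sums the same members were called in each line, with IAA17 at −1.14 in hyl1-2 (0.000736) and at −0.74 in pif457 (0.105). The part of the root marker shift in hyl1-2 was not tested. All 4 of these comparisons share the Col-0 libraries.

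**Figure D4:**
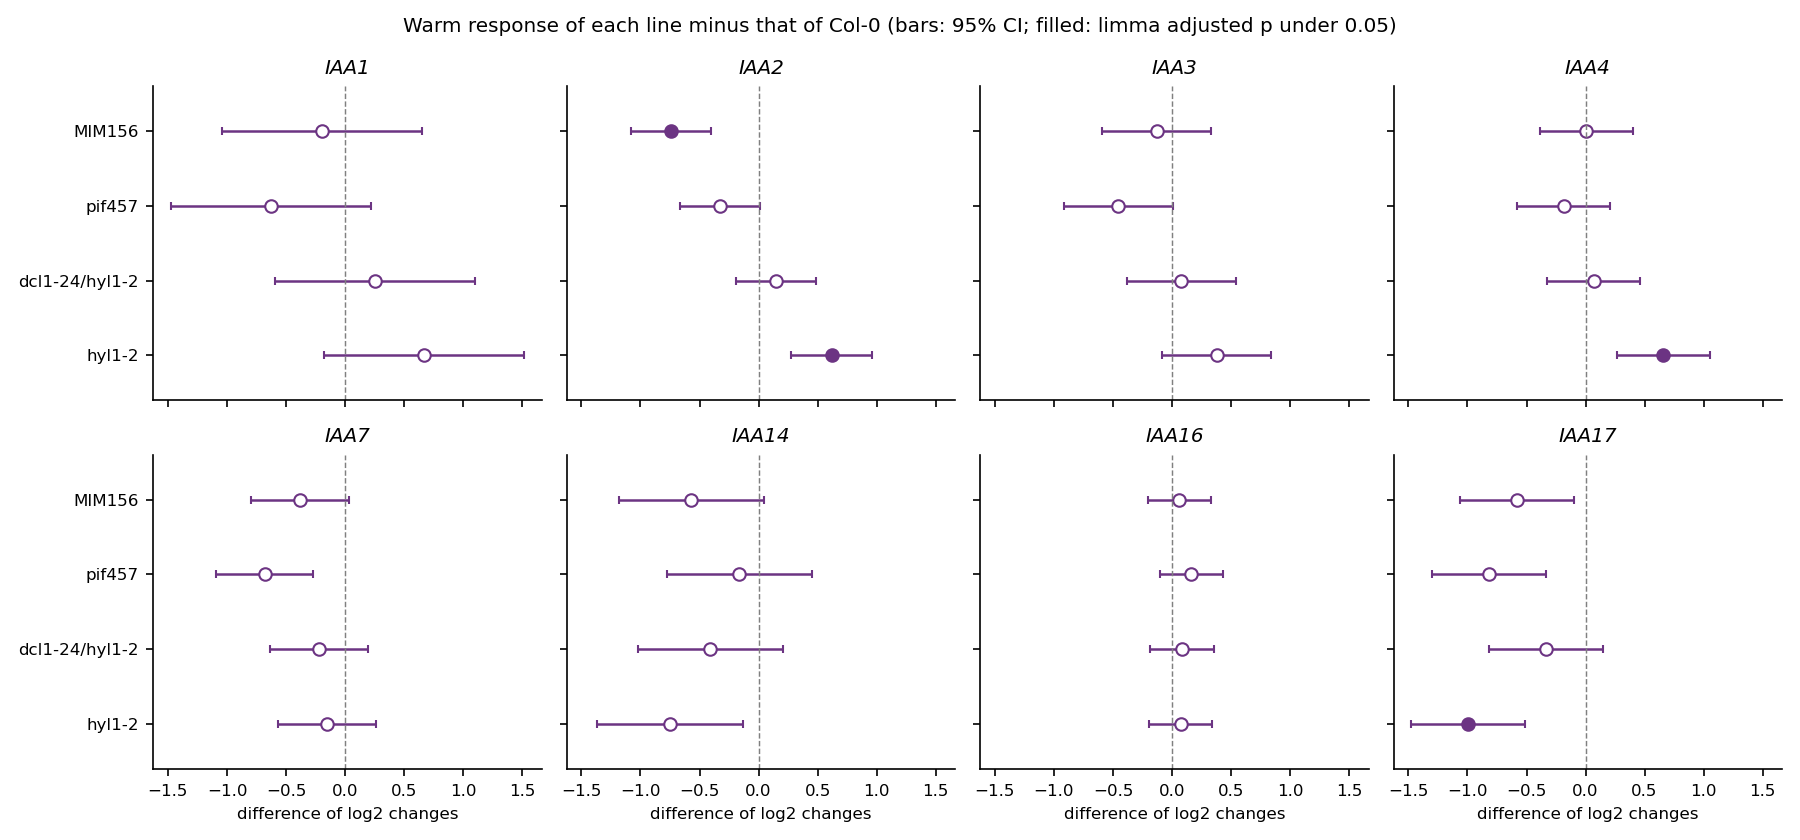
Log2 change with warmth in each line minus that in Col-0 (horizontal axis) for each gene, with 95% confidence intervals and filled points for a limma adjusted p under 0.05. IAA17 lay at −0.99 in hyl1-2, where IAA2 and IAA4 lay at 0.62 and 0.66, and IAA2 lay at −0.74 in MIM156.

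Among the members, the levels of IAA3 and IAA7 ran most closely together over the 30 libraries (Pearson's r = 0.84 on the log2 scale), and IAA4 and IAA17 least (r = −0.23). Genotype, temperature and library composition are shared by all points, so these values describe the libraries only. The genes of at least 5 CPM whose levels were most like each member's, of 15135 compared over the same libraries, were XYL1 (r = 0.78) and AT1G21830 (0.77) for IAA1, P1R1 (0.90) and AT1G55360 (0.88) for IAA2, AT1G04230 (0.96) and BGLU18 (0.93) for IAA3, AT3G15590 (0.91) and IMB1 (0.88) for IAA4, ST2B (0.95) and AT5G21105 (0.93) for IAA7, AT3G53370 (0.78) and AT5G11960 (0.76) for IAA14, LARP6a (0.93) and PGRL1B (0.93) for IAA16, and PRF1 (0.84) and NRT1.1 (0.83) for IAA17. The gene nearest to IAA3 was the one that overlaps it. AT1G04230 averaged 12.1 ± 1.5 CPM in MIM156 against 20.9 ± 0.614 CPM in Col-0 at 27 °C (log2 difference −0.77 ± 0.14, adjusted p = 0.00014), and 10.3 ± 0.386 against 16.6 ± 1.62 CPM at 21 °C (−0.66 ± 0.14, 0.000773), while IAA3 differed by −1.33 and −1.20. With warmth in hyl1-2, AT1G04230 averaged 17.7 ± 1.89 CPM at 27 °C and 12.2 ± 0.887 CPM at 21 °C (0.52 ± 0.14, 0.00672). How reads from the shared bases were counted was not tested.

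**Figure D5:**
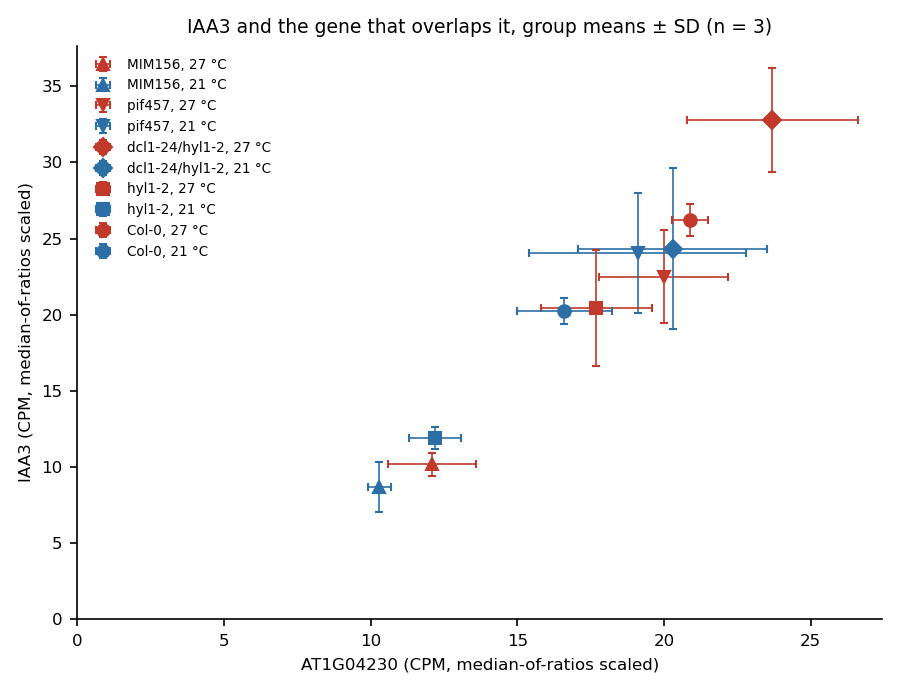
Mean level of IAA3 (vertical axis) against AT1G04230, the gene on the other strand that overlaps 39.6% of the exon bases of IAA3 (horizontal axis), both in CPM after median-of-ratios scaling, with bars for the SD of 3 libraries, red for 27 °C and blue for 21 °C. The 2 genes had nearly the same order of groups, with MIM156 lowest and the 27 °C group of dcl1-24/hyl1-2 highest.

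The 250 bases before the annotated start of IAA3, IAA4 and IAA7 are shown because these members were the ones called in MIM156 against Col-0 at both temperatures. The windows were searched on both strands for TGTCTC and TGTCGG (elements bound by ARFs), CACGTG (the G-box) and CATGTG (the PBE box), to which PIF proteins bind, and GTAC, the core bound by the SPL factors that miR156 targets. Matches are in capitals, and the sequences run 5′ to 3′ on the gene's strand from TAIR10.1.
IAA3 (chr1:1129690-1129939, minus strand): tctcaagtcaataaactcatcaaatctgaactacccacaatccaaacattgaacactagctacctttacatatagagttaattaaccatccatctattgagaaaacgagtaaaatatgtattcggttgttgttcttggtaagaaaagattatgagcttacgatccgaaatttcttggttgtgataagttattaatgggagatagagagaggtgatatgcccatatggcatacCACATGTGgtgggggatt
IAA4 (chr5:17549929-17550178, plus strand): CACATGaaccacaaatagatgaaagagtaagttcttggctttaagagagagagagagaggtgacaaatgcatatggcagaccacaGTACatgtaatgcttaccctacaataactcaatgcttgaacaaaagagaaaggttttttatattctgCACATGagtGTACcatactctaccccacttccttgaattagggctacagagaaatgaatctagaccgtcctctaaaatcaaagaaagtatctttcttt
IAA7 (chr3:8194356-8194605, plus strand): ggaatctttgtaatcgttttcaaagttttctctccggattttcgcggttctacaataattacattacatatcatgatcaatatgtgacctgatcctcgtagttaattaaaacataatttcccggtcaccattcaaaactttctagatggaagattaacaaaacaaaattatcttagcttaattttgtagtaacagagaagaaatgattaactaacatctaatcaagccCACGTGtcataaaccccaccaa
IAA7 had a G-box 22 bases before its start, and 6.49% of 27443 promoters of the same length held one. IAA3 had 2 overlapping CATGTG matches on opposite strands, 18 and 16 bases before its start, and IAA4 had 2, at 250 and 98 bases, beside 11.1% of promoters. IAA4 also had 2 GTAC matches, at 165 and 89 bases, and IAA1, IAA14 and IAA16 each had 1, beside 34.3% of promoters. TGTCTC was found in IAA1 alone, 135 bases before its start, beside 10.9% of promoters, and TGTCGG in IAA1 and IAA16, beside 4.16%. A match is only the presence of these letters in this window.

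The rest of the pathway was counted in lists, beside 18.2% of all genes called with warmth in Col-0 (8.54% higher and 9.68% lower). Of the 21 other Aux/IAA genes 17 were tested, and 5 rose and none fell with warmth in Col-0, led by IAA19 at 19.75 ± 4.74 CPM at 27 °C against 2.39 ± 0.695 CPM at 21 °C (log2 change 2.81 ± 0.32, adjusted p = 2.28e-07) and IAA6 at 3.29 ± 0.501 CPM against 0.247 ± 0.214 CPM (2.38 ± 0.32, 3.22e-06). No change among the 8 members in Col-0 exceeded 0.86. Of 14 auxin-induced outputs, which are SAUR growth genes, GH3 auxin-conjugating enzymes and LBD factors, 9 rose and none fell in Col-0, among them SAUR19 (2.57 ± 0.31, 5.31e-07) and SAUR22 (2.07 ± 0.34, 4.55e-05), which are near-identical neighbours whose counts are uncertain, since reads that match several copies are not unique to one. The machinery that acts on the repressors was counted against the same 18.2% of all genes called in Col-0. Of 8 receptor complex genes 1 rose, the receptor AFB1 (0.49 ± 0.15, 0.0188). None of the 5 TOPLESS genes and none of the 5 activating ARFs was called in Col-0 by limma or edgeR, with 1 of each list at an unadjusted p under 0.05, and DESeq2 called 0 and 1. Of all 21780 genes edgeR called 3891 and DESeq2 4320. Of 10 other ARFs, ARF11 rose (0.59 ± 0.19, 0.0273) and ARF16 fell (−0.51 ± 0.14, 0.0132).

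With warmth, 9 of the 17 other Aux/IAA genes were called higher and 1 lower in hyl1-2, beside 31.4% of all genes called in that line, and 5 were called higher in dcl1-24/hyl1-2, beside 14.4%. In MIM156 limma called 1 higher, beside 18.3% of all genes, and edgeR and DESeq2 called 2 each, beside 3886 and 4369 of the 21780 genes. In pif457 none was called by limma, edgeR or DESeq2, beside 17.4% of all genes by limma, with 2 at an unadjusted p under 0.05. There edgeR and DESeq2 called 3813 and 4220 of all genes. These counts were not tested against each other. Several genes of these lists also responded differently to warmth in a line than in Col-0. In pif457, 3 of the 17 responded less than in Col-0 and none more, beside 1.36% of all genes (0.565% higher and 0.799% lower). Among them were IAA19 at −3.20 ± 0.45 (adjusted p = 0.000381) and IAA29 at −2.61 ± 0.41 (0.000917). In MIM156 2 responded less, IAA19 at −2.20 ± 0.45 (0.00857) and IAA29 at −2.02 ± 0.41 (0.00833), beside 1.58% of all genes (0.79% higher and 0.794% lower). Of the 14 auxin-induced outputs, SAUR19 and GH3.3 responded less in both lines, beside the same shares of all genes. Their log2 differences were −2.41 ± 0.43 (0.00358) and −1.64 ± 0.37 (0.0203) in pif457, and −1.81 ± 0.43 (0.0283) and −1.83 ± 0.37 (0.00808) in MIM156. In hyl1-2, 2 of the 17 other Aux/IAA genes, IAA26 (0.60 ± 0.19, 0.0487) and IAA18 (0.58 ± 0.15, 0.0221), responded more than in Col-0 and none less. This stood beside 6.76% of all genes (2.63% higher and 4.13% lower). The direction was that of IAA2 and IAA4 in that line, whose calls were lost under the deposited totals and with any of several libraries left out. IAA26 and IAA18 were not followed under those alternatives. Of the 10 other ARFs, ARF11 (0.95 ± 0.27, 0.0302) and ARF18 (0.88 ± 0.24, 0.0279) also responded more in hyl1-2, beside the same share. No test compared the 8 members as a list with these lists.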

How the data were processed

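The 30 libraries were made from poly(A) RNA of whole seedlings and read from both ends. Per the submitters' processing notes, reads were mapped with STAR 2.7.7a, counted over genes, where they mapped uniquely, with featureCounts 2.0.1 and tested with DESeq2 1.35.0; the annotation was Araport11. The deposited values carry the name FPKM but are CPM as the authors scaled them: each library sums to just under the total that CPM has, and 100% of values are whole multiples of the smallest one within 0.001, so the whole reads were recovered. The authors' own comparison columns (fold changes and p-values) were not used.

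Values were scaled by median of ratios, and log2(CPM + 0.5) was fitted, for genes that reached 1 CPM in 3 or more libraries, with limma 3.58.1 (trend and robust options, R 4.3.3), with a mean per group and all 30 libraries in the fit, so that fold changes of low genes are understated. Adjusted p-values are Benjamini-Hochberg over 21780 genes for each of the 19 comparisons, and confidence intervals cover 95%. The share of all genes at an unadjusted p under 0.05 was not counted for any comparison. Alternatives were other pseudocounts, filters and scaling, a replicate block, fits of the compared groups alone, left-out libraries, edgeR 4.0.16 and DESeq2 1.42.0 on the recovered reads; leaving out the 3 libraries of outlying root marker sums was added after seeing the data. Same-numbered libraries were taken as paired where all 3 correlations of their deviations from group means exceeded 0.1: warmth in Col-0 (lowest 0.14), dcl1-24/hyl1-2 against Col-0 at 27 °C (0.11) and 21 °C (0.42), hyl1-2 against Col-0 at 27 °C (0.17), pif457 against Col-0 at 21 °C (0.30), and dcl1-24/hyl1-2 against hyl1-2 at 27 °C (0.24) and 21 °C (0.21). The study calls the 3 libraries of a group biological replicates. No pair of libraries within a group agreed within sampling noise.

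Exon lengths, neighbours, overlaps and sequences came from the RefSeq annotation of TAIR10.1. The genes, lists and tests were chosen with earlier results of these data known. All 8 members were named in every comparison; in other lists at most 2 called genes of largest change were named for warmth in Col-0 and for each difference of responses.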

Additional observations from a re-analysis of the deposited data

Results flagged for a closer look

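In 4 cases the change of a member with warmth differed between a line and Col-0 by the limma test of that difference. In hyl1-2 the difference of log2 changes was −0.99 for IAA17 (adjusted p = 0.013), which was 49.5 ± 4.65 CPM at 27 °C and 69.1 ± 8.98 CPM at 21 °C in hyl1-2, while in Col-0 it was 70.7 ± 4.86 CPM at 27 °C and 49.6 ± 9.31 CPM at 21 °C (SD, n = 3 each). It was 0.66 for IAA4 (0.0376) and 0.62 for IAA2 (0.0259) in hyl1-2. In MIM156 it was −0.74 for IAA2 (0.019), which was 26.6 ± 1.88 CPM at 27 °C and 25.0 ± 0.907 CPM at 21 °C in MIM156, while in Col-0 it was 45.5 ± 4.22 CPM at 27 °C and 25.3 ± 0.590 CPM at 21 °C. The root marker sum moved in hyl1-2 as well, as given in the report, and its part was not tested.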

How the results depend on the processing

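Of 152 values (8 members in 19 comparisons), 48 were called, and no alternative reversed the direction of a called value. Unless named here, the number of members called stayed within 1.5 times under each alternative. With a pseudocount of 2, dcl1-24/hyl1-2 against Col-0 at 27 °C had 2 members called, not 1, and hyl1-2 against Col-0 at 27 °C had 1, not 0, as it had with a filter of 5 CPM. With the totals as deposited, the median log2 change of all genes with warmth was 0.36 in MIM156, 0.32 in dcl1-24/hyl1-2, 0.28 in hyl1-2, 0.27 in Col-0 and 0.01 in pif457, and the members called became 7, not 3, for warmth in MIM156, 8, not 5, in dcl1-24/hyl1-2, 3, not 1, for dcl1-24/hyl1-2 against Col-0 at 27 °C, 1, not 0, for hyl1-2 against Col-0 at 27 °C, 2, not 1, for pif457 against Col-0 at 21 °C, and 4, not 1, at 27 °C and 5, not 3, at 21 °C for dcl1-24/hyl1-2 against hyl1-2. The responses against Col-0 then had 0, not 1, in MIM156, 2, not 0, in pif457 and 1, not 3, in hyl1-2. With the replicate block they became 3, not 0, for hyl1-2 against Col-0 at 27 °C and 5, not 3, at 21 °C, 2, not 1, for pif457 and 1, not 0, for dcl1-24/hyl1-2 against Col-0 at 21 °C, 5, not 3, for dcl1-24/hyl1-2 against hyl1-2 at 21 °C, and 2, not 0, for the response in pif457. In the comparisons whose numbers do not pair the libraries, the block added 6 calls, and it ended none in any comparison. With DESeq2, dcl1-24/hyl1-2 and hyl1-2 against Col-0 at 27 °C had 3, not 1, and 1, not 0. In fits of the compared groups alone there were 3, not 5, for warmth in dcl1-24/hyl1-2, 2, not 1, for dcl1-24/hyl1-2 and 2, not 0, for hyl1-2 against Col-0 at 27 °C, 1, not 3, for hyl1-2 against Col-0 at 21 °C, and 0, not 1, and 1, not 3, for the responses in MIM156 and hyl1-2. Without replicate 3 of the 21 °C groups of Col-0, dcl1-24/hyl1-2 and MIM156 there were 2, not 1, for pif457 against Col-0 and 5, not 3, for dcl1-24/hyl1-2 against hyl1-2 at 21 °C, and 0, not 1, and 1, not 0, for the responses in MIM156 and pif457. Without the 3 libraries of outlying root marker sums the same 2 comparisons at 21 °C had 2 and 6. The cause of these shifts was not tested.

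With 1 library left out, the members called for warmth ranged over 1 to 3 in MIM156, 2 to 3 in pif457, 3 to 6 in dcl1-24/hyl1-2, 6 to 7 in hyl1-2 and 4 to 5 in Col-0. Against Col-0 at 27 °C they were 5 in MIM156, 3 in pif457, 0 in dcl1-24/hyl1-2 and 0 in hyl1-2, and at 21 °C they were 3 to 4, 1 to 2, 0 to 1 and 2 to 4 in the same lines. Against hyl1-2, dcl1-24/hyl1-2 had 0 to 1 at 27 °C and 3 to 4 at 21 °C. For the responses they were 0 to 1 in MIM156, 0 to 1 in pif457, 0 in dcl1-24/hyl1-2 and 1 to 3 in hyl1-2. The number of all genes called was not recorded for the fits with 1 library left out, so these ranges have no such share beside them. Under the other alternatives the number of all genes called moved by over 1.5 times in these cases. With the totals as deposited, warmth had 8226, not 3990, in MIM156, 6661, not 3134, in dcl1-24/hyl1-2 and 6466, not 3968, in Col-0, dcl1-24/hyl1-2 against hyl1-2 at 27 °C had 2538, not 1347, and the responses had 606, not 297, in pif457 and 940, not 1472, in hyl1-2. With the block, dcl1-24/hyl1-2 had 737, not 440, against Col-0 at 27 °C, 428, not 245, at 21 °C and 2146, not 1347, against hyl1-2 at 27 °C, and the responses had 652, not 345, in MIM156, 546, not 297, in pif457 and 2653, not 1472, in hyl1-2. DESeq2 gave 685 and 391 for dcl1-24/hyl1-2 against Col-0 at 27 °C and 21 °C, and 574 and 519 for the responses in MIM156 and pif457. Fits of the compared groups alone gave 1797 for warmth in dcl1-24/hyl1-2, 979 for dcl1-24/hyl1-2 against Col-0 at 27 °C, and at 21 °C 3311, not 6198, for MIM156, 488, not 2263, for pif457, 18 for dcl1-24/hyl1-2 and 2341, not 4728, for hyl1-2 against Col-0, 3406, not 6474, for dcl1-24/hyl1-2 against hyl1-2, and 126 for the response in MIM156. Leaving out the replicates 3 named above gave 3414 for pif457 against Col-0 at 21 °C and 155, 596 and 3108 for the responses in MIM156, pif457 and hyl1-2, and leaving out the libraries of outlying root marker sums gave 2664 for the response in hyl1-2. Depth limits IAA1 most, at 24 to 278 reads in a library.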
